A study of Drosophila melanogaster with 12 samples.

Results

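The 8 homeotic (Hox) genes of Drosophila melanogaster were examined for accessible chromatin in 12 libraries of an assay for transposase-accessible chromatin (ATAC-seq) on early embryos. They are labial (lab), proboscipedia (pb), Deformed (Dfd), Sex combs reduced (Scr) and Antennapedia (Antp) of the Antennapedia complex, and Ultrabithorax (Ubx), abdominal-A (abd-A) and Abdominal-B (Abd-B) of the bithorax complex. A peak, an interval where sequenced fragments pile up over background, belonged to a member when it overlapped the annotated gene span extended by 5 kb on each side. The 8 windows covered 418 kb of chromosome arm 3R, 0.304% of the 7 chromosomes and arms considered. When the peaks of all 12 libraries were merged where they overlapped, 135 of 22350 regions lay in these windows.

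The libraries formed 6 groups of 2 replicates. A first set held wild-type embryos and M-Z+ HIRA mutant embryos at 0.5-1.5 h and at 2-3 h after egg laying. A second set held wild-type and M-Z+ dPCIF1 mutant embryos at 0.5-1.5 h. M-Z+ embryos lacked the gene product from the mother and kept a zygotic copy. HIRA is a chaperone that deposits the histone variant H3.3 independently of DNA replication, and dPCIF1 is the fly homologue of an enzyme that methylates the adenosine next to the messenger RNA cap. The study detected no such cap mark in flies and describes dPCIF1 as associated with chromatin and bound to HIRA. The study's methods name w1118 as wild type and describe null alleles made by genome editing. Whole embryos were selected by hand and pooled within each of 2 biological replicates, so cell types were not resolved. The study describes embryos of HIRA mutant mothers as often arrested or delayed in their nuclear divisions, so equal collection times may not be equal stages. Peak lists hold no transcript levels, and neither the genotypes nor the tissue could be checked from them. In such bulk samples, fewer nuclei with an open site and less opening per nucleus cannot be told apart.

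Hox genes encode homeodomain transcription factors that give body segments their identity. In the fly they lie along the chromosome in the order of the segments they control, from the head (lab, pb, Dfd) through the thorax (Scr, Antp, Ubx) to the abdomen (abd-A, Abd-B). Their transcription starts around the maternal-to-zygotic transition under the gap and pair-rule factors, and later it is held on or off by trithorax and Polycomb group proteins acting through long introns and intergenic elements. GAF, the product of Trl, binds GA-rich DNA at many such elements and at the Ubx promoter, and Zelda is the maternal factor that opens early zygotic enhancers.

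Every Hox window held accessible regions at 0.5-1.5 h in wild type. Over all libraries the merged regions ranged from 41 at Antp, the longest gene (span 103 kb), and 23 at Ubx (77.8 kb) to 6 at Dfd, the shortest (10.6 kb). Between these came Abd-B with 18, Scr with 14, pb with 12, lab with 11 and abd-A with 10. Per 100 kb of window, the mean over all 12 libraries was 21.1 ± 5.27 (SD, n = 12) at abd-A and 9.71 ± 5.07 (SD, n = 12) at Dfd. The other means were 19.0 at Scr, 17.6 at Antp, 16.2 at Abd-B, 16.0 at lab, 14.9 at pb and 12.9 at Ubx, with SDs of 4.62 to 8.65. Neighbouring means differed by less than the spread over libraries, and the order was not the same within groups. In HIRA mutants at 2-3 h Scr (25.8) was above abd-A (22.8), in dPCIF1 mutants lab (23.9), Scr (23.1) and Antp (21.2) were above abd-A (19.8), and in early wild type of the HIRA set Ubx (9.68) was below Dfd (12.1).

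Of the 135 regions, 35 lay within 1 kb of an annotated transcript start site of any gene (TSS class), 81 were intronic, 15 exonic and 4 intergenic. The intronic share was 60.0%, against 23.4% of all regions, and the TSS share was 25.9% against 44.2%. The windows themselves were 62.9% intronic by length and 17.8% near start sites, where the chromosomes were 35.9% and 23.1%. Introns of Antp alone held 33 regions and introns of Ubx 17. The 4 intergenic regions lay beyond the 3′ ends of Dfd and abd-A and upstream of Scr.

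**Figure D1:**
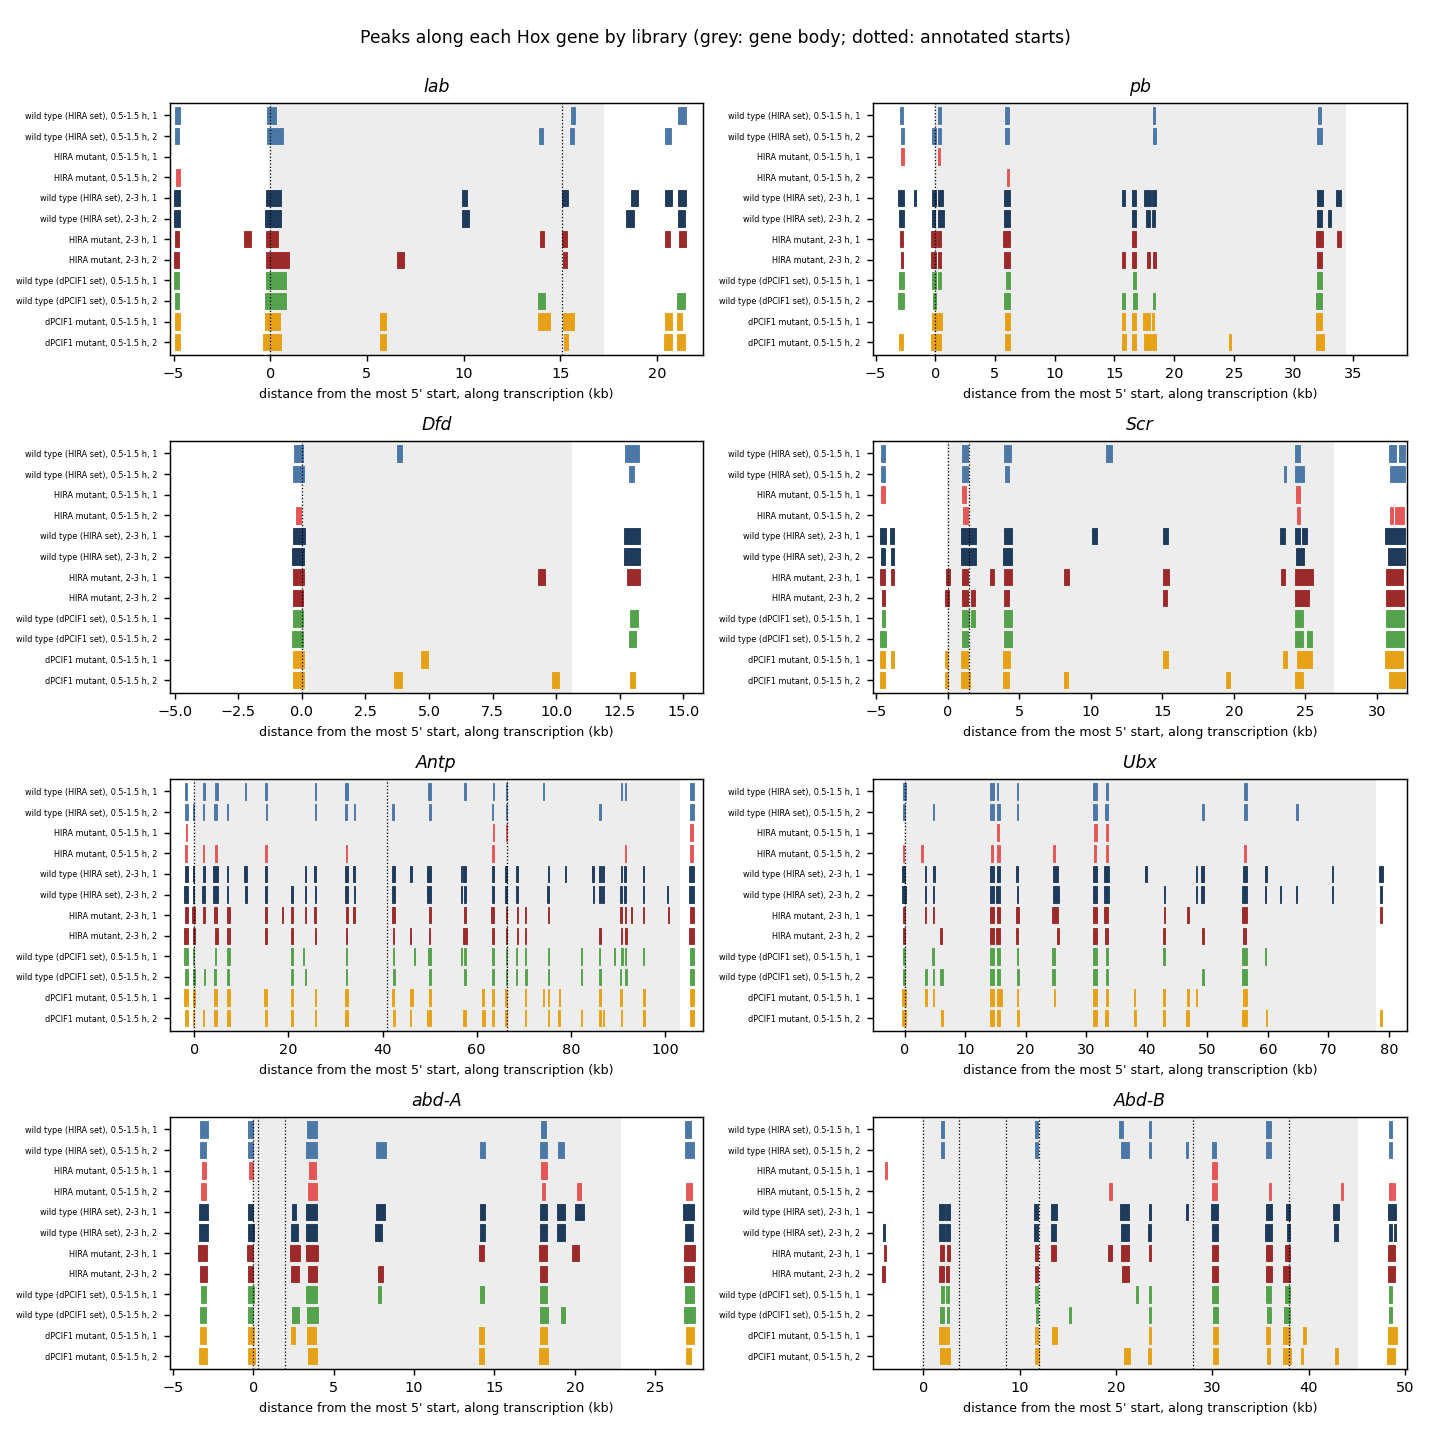
Every peak in the 8 Hox windows, drawn along the distance in kb from the most 5′ annotated start of the gene in the direction of transcription; each row is 1 library, coloured by group, the grey band is the gene body and dotted lines are annotated starts. The same columns of peaks recur from library to library, and the 2 rows of HIRA mutants at 0.5-1.5 h are the sparsest.

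Hox regions recurred between libraries. A peak was present in all 12 libraries at 11 of the 135 regions (8.15%), where 3.14% of all regions were, and in 10 or more libraries at 36 (26.7%, against 11.2%). Regions found in 1 library only were 24 (17.8%, against 35.9%). The 11 constant regions belonged to 4 genes. Scr had 2, at chr3R:6824466-6825730 near its 3′ end and at chr3R:6848027-6849038 over its main start. Antp had 3, at chr3R:6893089-6894102 beyond its 3′ end next to the start of the lncRNA gene CR45559, at chr3R:6935568-6936166 in an intron 63.36 kb into the gene, and at chr3R:7000555-7001312 upstream of its distal start. Ubx had 3, at chr3R:16700737-16701530 and chr3R:16702656-16703308 in introns and at chr3R:16718404-16719307 near the start of the antisense RNA PS4. The remaining 3 lay at abd-A, at chr3R:16811722-16812256 and chr3R:16826037-16826789 in introns and at chr3R:16832869-16833523 upstream of the gene, within the lncRNA gene iab8. Coordinates are of Release 6 (dm6). No region of lab, pb, Dfd or Abd-B was present in all 12 libraries, although these genes had 2, 4, 1 and 5 regions in 10 or more.

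Regions were searched for the GAF motif GAGAGAG and the Zelda motif CAGGTAG on both strands within 100 bp of the midpoint, so that every region was searched over the same length. GAGAGAG was found in 15 of the 135 Hox regions (11.1%, against 6.51% of all regions) and CAGGTAG in 7 (5.19%, against 3.95%). Among the 36 Hox regions present in 10 or more libraries, 9 held GAGAGAG (25.0%, against 14.8% of such regions over all chromosomes). Among the 51 present in 1 to 3 libraries, 1 did, against 4.31% of such regions. CAGGTAG showed no such order among the Hox regions, with 2 of the 36 (5.56%, against 9.39%) and 3 of the 51 (5.88%, against 2.92%). These counts are too small to show an order. Over all regions its share did rise with the number of libraries, from 2.92% through 4.02% in 4 to 9 libraries to 9.39%. Of the 15 regions with GAGAGAG, 4 each were at Antp, Ubx and abd-A, 2 at Scr and 1 at Dfd. None of the 11, 12 and 18 merged regions of lab, pb and Abd-B held it within 100 bp of the midpoint. This depends on where the midpoint falls. The late wild-type peaks at an Abd-B start merged to chr3R:16960286-16960708, which held GAGAGAG within 100 bp of its own midpoint. So did the late HIRA mutant peaks at the proximal lab start, merged to chr3R:6663239-6663484. Searched over its whole length, 18.5% of Hox regions held it, against 12.5% of all. A match describes the letters in the window and does not show that a factor was bound.

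The sequences of 6 such regions are shown because the results below return to them. They are read from the RefSeq Release 6 genome 5′ to 3′ in the direction in which the Hox gene is transcribed, with motif matches in capitals, and leave out annotated exons. The first 4 lie just upstream of a start site and the last 2 are intronic. The run at Ubx covers chr3R:16734431-16734670, that at abd-A chr3R:16830098-16830337, that at Dfd chr3R:6791574-6791813 (plus strand, the others minus) and that at the distal start of Scr chr3R:6849982-6850153. The intronic runs cover chr3R:16702855-16703094 in Ubx and chr3R:16811883-16812122 in abd-A.
Ubx start: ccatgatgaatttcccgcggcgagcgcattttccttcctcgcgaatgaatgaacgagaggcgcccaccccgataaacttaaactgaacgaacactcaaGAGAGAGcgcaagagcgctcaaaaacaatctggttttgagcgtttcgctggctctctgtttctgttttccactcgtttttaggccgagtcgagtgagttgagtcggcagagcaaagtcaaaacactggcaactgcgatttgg
abd-A start: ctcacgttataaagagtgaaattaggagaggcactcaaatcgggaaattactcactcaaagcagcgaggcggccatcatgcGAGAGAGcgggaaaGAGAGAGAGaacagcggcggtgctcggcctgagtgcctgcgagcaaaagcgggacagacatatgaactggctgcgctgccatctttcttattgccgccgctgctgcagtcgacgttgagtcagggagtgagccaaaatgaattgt
Dfd start: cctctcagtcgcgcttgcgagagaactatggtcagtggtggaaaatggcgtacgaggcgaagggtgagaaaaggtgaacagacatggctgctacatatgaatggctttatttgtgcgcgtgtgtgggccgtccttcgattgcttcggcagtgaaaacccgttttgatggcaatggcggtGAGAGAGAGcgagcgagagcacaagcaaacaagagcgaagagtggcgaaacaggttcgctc
Scr distal start: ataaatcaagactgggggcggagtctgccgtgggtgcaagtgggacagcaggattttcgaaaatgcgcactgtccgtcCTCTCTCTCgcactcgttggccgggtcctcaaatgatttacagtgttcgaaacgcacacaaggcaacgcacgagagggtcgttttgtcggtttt
Ubx intron: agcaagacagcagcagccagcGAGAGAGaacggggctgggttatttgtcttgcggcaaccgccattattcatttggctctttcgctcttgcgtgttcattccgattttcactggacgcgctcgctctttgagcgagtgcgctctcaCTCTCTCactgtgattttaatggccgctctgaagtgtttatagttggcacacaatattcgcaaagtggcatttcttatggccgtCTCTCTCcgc
abd-A intron: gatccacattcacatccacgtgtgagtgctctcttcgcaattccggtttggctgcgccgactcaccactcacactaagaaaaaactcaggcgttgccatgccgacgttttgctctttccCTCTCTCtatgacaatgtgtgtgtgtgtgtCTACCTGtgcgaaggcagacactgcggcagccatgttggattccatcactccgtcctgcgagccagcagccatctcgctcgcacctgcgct
The abd-A intron was the region present in all 12 libraries that held both motifs, a combination found in 2 of the 135 Hox regions and in 0.224% of all regions.

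The number of Hox peaks was lowest in HIRA mutants at 0.5-1.5 h and highest in wild type at 2-3 h. The wild-type libraries of the HIRA set held 52 and 60 peaks in the windows at 0.5-1.5 h and the HIRA mutants 18 and 34. At 2-3 h the wild-type libraries held 97 and 91 and the HIRA mutants 87 and 69. The dPCIF1 set had 67 and 68 in wild type and 78 and 83 in mutants. The groups did not overlap in any of these 3 genotype comparisons. The log2 ratio of mutant to control means was -1.11 for HIRA at 0.5-1.5 h, -0.27 for HIRA at 2-3 h and 0.25 for dPCIF1 (2 against 2 libraries, exact two-sided permutation p = 0.333 in each, adjusted p = 0.333 over 8 comparisons). A p of 0.333 is the smallest that 2 against 2 libraries can give.

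The whole peak lists differed in the same directions, so the Hox windows were also compared by their percentage of each list. The lists held 1505 to 11432 peaks, the shortest being the HIRA mutants at 0.5-1.5 h (1505 and 2399). Depth is unknown, since the files hold intervals only, and list length cannot be told apart from depth. Over the 12 libraries the number of Hox peaks had a Pearson correlation of 0.971 with list length. The Hox share was 1.10% and 1.10% in early wild type of the HIRA set and 1.20% and 1.42% in early HIRA mutants. It was 0.848% and 0.910% in wild type at 2-3 h and 0.821% and 0.969% in HIRA mutants at that time. In the dPCIF1 set it was 0.889% and 0.870% in wild type and 0.798% and 0.731% in mutants. These shares were 2.41 to 4.67 times the windows' share of chromosome length.

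At 0.5-1.5 h, then, HIRA mutants had 0.46 times the Hox peaks of wild type and 0.38 times the peaks overall. The Hox share was higher in both mutants than in both controls (log2 ratio 0.24, spread of the replicates 0.17, exact permutation p = 0.333, adjusted p = 0.444, 2 against 2). With no extension of the gene spans this ratio was -0.02, and with the 1505 widest peaks of every library it was 0.00. In dPCIF1 mutants the Hox peaks were 1.19 times and all peaks 1.38 times those of the controls, and the Hox share was lower in both mutants (log2 ratio -0.20, spread 0.09, exact permutation p = 0.333, adjusted p = 0.444). At 2-3 h the shares of HIRA mutants and controls overlapped (log2 ratio 0.03).

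Hox peaks were more numerous at 2-3 h than at 0.5-1.5 h, without overlap, in both genotypes of the HIRA set. The log2 ratio was 0.75 in wild type and 1.58 in mutants, and over both genotypes it was 1.07 (4 against 4 libraries, exact two-sided permutation p = 0.0286, the smallest this design allows, adjusted p = 0.229). The Hox share was lower at 2-3 h (log2 ratio -0.44, exact permutation p = 0.0286, adjusted p = 0.229, lower in 4 of 4 late libraries). Late libraries held 2.10 times the Hox peaks and 2.78 times the total peaks of early ones. After the adjustment neither difference passed 0.05. With the 1505 widest peaks of each library the log2 ratio of Hox peaks was -0.19.

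**Figure D2:**
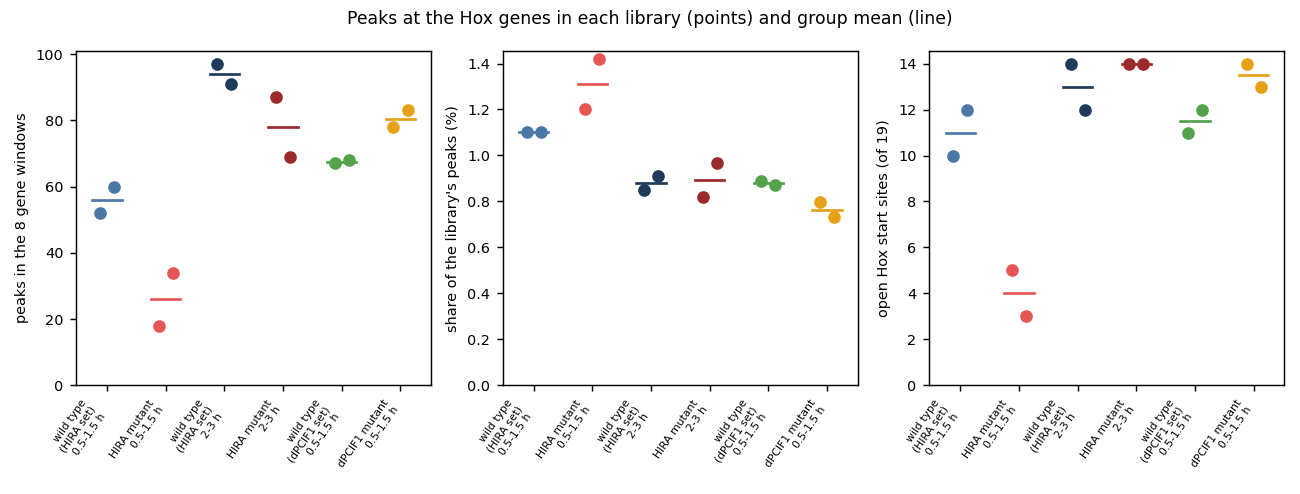
Number of peaks in the Hox windows, their share of the library's peaks in percent, and number of open start sites out of 19 in each library; points are libraries, horizontal lines are means of 2. HIRA mutants at 0.5-1.5 h had the fewest peaks (18 and 34) and open starts (5 and 3) and the highest shares (1.20% and 1.42%). Their lists were the shortest, and with the 1505 widest peaks of each library they had more open starts than their controls by mean.

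The length covered by peaks gave the same picture. It was 19.6 and 23.6 kb in early wild type of the HIRA set and 5.79 and 10.9 kb in early HIRA mutants, a log2 ratio of -1.37 (exact permutation p = 0.333, adjusted p = 0.343, 2 against 2). At 2-3 h it was 45.1 and 40.7 kb in wild type and 38.2 and 30.9 kb in HIRA mutants. The dPCIF1 mutants covered 35.0 and 35.8 kb and their controls 26.4 and 28.8 kb (log2 ratio 0.36, exact permutation p = 0.333, adjusted p = 0.343). No group overlapped its control in this measure. Hox peaks were of ordinary width for their library, the median Hox peak lying between the 40.8 and the 62.9 percentile.

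In HIRA mutants at 0.5-1.5 h, 5 of 8 genes had fewer peaks without overlap. Peak numbers of both mutants were below those of both controls at lab, pb, Dfd, Scr and Antp, while 35.7% of all genes with a peak in these libraries met that rule. That share is over 11094 genes with a peak in at least 1 of the 4 libraries, and the later comparisons use the same rule. Genes with at least 5 peaks on average numbered 271 in the ranking given below. These shares are therefore not matched to the Hox windows in peak number. At lab, the most anterior gene, the controls had 4 and 5 peaks and the mutants 0 and 1. At pb, needed for mouthpart identity, controls had 5 and 6 peaks against 2 and 1 in mutants. Dfd, which specifies maxillary and mandibular segments, had 3 and 2 against 0 and 1, and Scr, which acts in the labial segment and prothorax, had 7 and 6 against 3 and 4. Antp, the mesothoracic gene, had 15 in each control and 4 and 8 in the mutants, the widest gap in number.

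At the genes of the bithorax complex the early HIRA libraries overlapped or met. Ubx, which sets metathoracic identity, had 7 and 10 peaks in controls and 3 and 8 in mutants. For abd-A, the anterior abdominal gene, the numbers were 5 and 8 against 4 and 5, and for Abd-B, which acts in the posterior abdomen, 6 and 8 against 2 and 6. Summed over the windows of a complex, controls had 34 and 34 peaks at the Antennapedia complex and mutants 9 and 15, and at the bithorax complex 18 and 26 against 9 and 19. Outside the windows the bithorax complex did not overlap: between its windows controls had 26 and 24 peaks and mutants 8 and 12. Between the windows of the Antennapedia complex the numbers were 14 and 16 against 6 and 11. The difference between the complexes was not tested.

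At 2-3 h the genes that were lower in both HIRA mutants than in both controls were Antp (26 and 20 against 29 and 29), Ubx (13 and 11 against 16 and 18) and abd-A (8 and 7 against 10 and 9). These are 3 of 8, beside 19.8% of all genes. In dPCIF1 mutants 4 of 8 genes were higher in both mutants, beside 24.9% of all genes. They were lab (7 and 6 against 2 and 4), Scr (9 and 8 against 6 and 6), Ubx (14 and 13 against 11 and 12) and Abd-B (10 and 11 against 9 and 9). With 2 libraries a group no single gene can pass the threshold.

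In wild type, peak numbers were higher at 2-3 h than at 0.5-1.5 h without overlap at pb, Antp, Ubx, abd-A and Abd-B (5 of 8, beside 42.3% of all genes). Antp had 29 and 29 peaks against 15 and 15, and Ubx 16 and 18 against 7 and 10. In HIRA mutants they were higher at all members but Dfd (7 of 8, beside 52.3%). The 2 early wild-type groups also differed: Antp (24 and 21 against 15 and 15), Ubx (11 and 12 against 7 and 10) and Abd-B (9 and 9 against 6 and 8) had more peaks in the dPCIF1 set than in the HIRA set (3 of 8, beside 21.6%). Lists of that set were 1.51 times as long, and the share of Hox peaks was lower (log2 ratio -0.33, exact permutation p = 0.333, adjusted p = 0.444). In the main comparisons, genotypes were therefore compared within a set. Patterns over all 12 libraries and look-ups of 1 set in the other, given below, carry this difference between the sets.

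**Figure D3:**
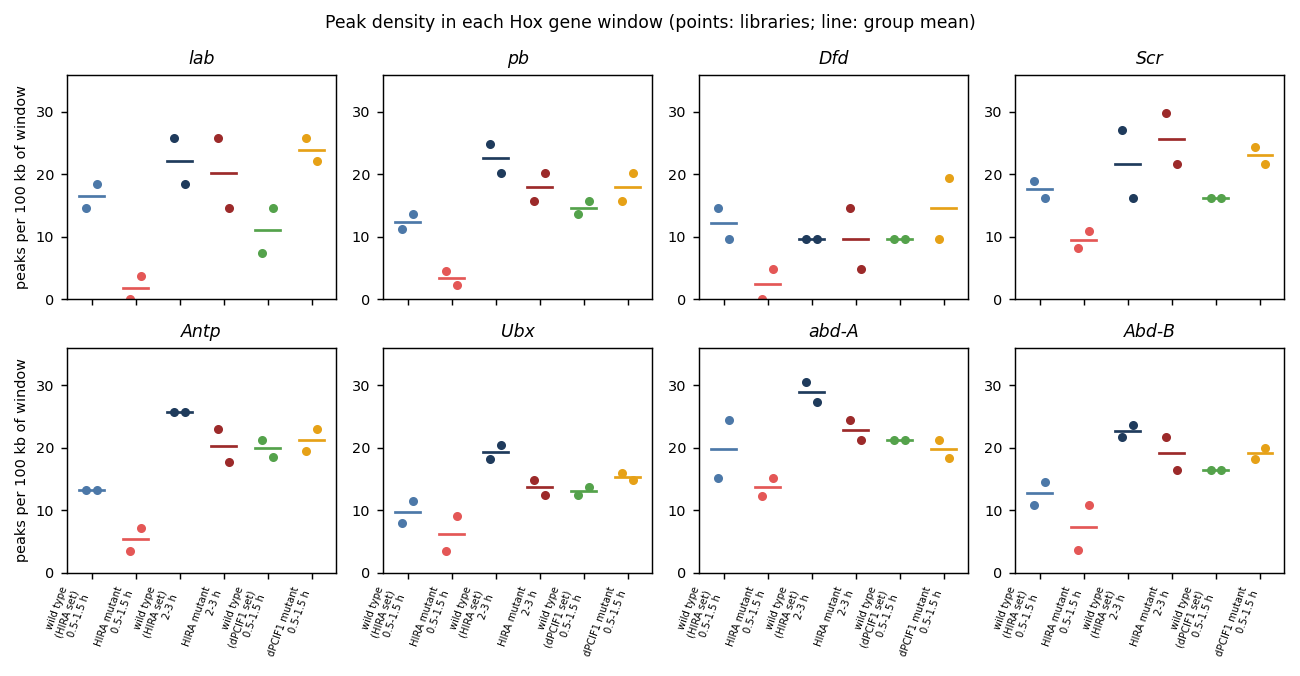
Peaks per 100 kb of window (y axis) at each Hox gene in the 6 groups (x axis); points are libraries and lines are means of 2. The early HIRA mutants are lowest at each gene by mean, from 1.84 at lab to 13.7 at abd-A.

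Start sites were followed one by one, counting a start as open when a peak lay within 500 bp. The 8 genes have 19 distinct annotated starts. Open starts numbered 10 and 12 in early wild type of the HIRA set, 5 and 3 in early HIRA mutants, 14 and 12 in wild type at 2-3 h, 14 and 14 in HIRA mutants at 2-3 h, 11 and 12 in wild type of the dPCIF1 set and 14 and 13 in dPCIF1 mutants. The early HIRA mutants were below their controls (log2 ratio -1.46, exact permutation p = 0.333, adjusted p = 0.667, 2 against 2) and did not overlap any other group. Their lists were also the shortest, and with the 1505 widest peaks of each library the direction of this ratio was reversed. At 2-3 h the 2 genotypes overlapped.

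Each of the 8 genes had at least 1 open start in all 10 libraries outside the early HIRA mutants. In any single one of these libraries, 15.5% to 35.1% of 13968 protein-coding genes had an open start. The share of genes open in all 10 was not computed, so the count of 8 has no matching share beside it. Genes with several starts meet the rule more easily, and the 8 genes have 19. In the early HIRA mutants 4 and 3 Hox genes had an open start, against 3.49% and 5.80% of all genes. Scr was open in both. Its main start, at 1.48 kb from the distal one, was the start with a peak in all 12 libraries, 330 and 354 bp wide in the early HIRA mutants and 417 to 1009 bp wide elsewhere. Starts of pb, abd-A and the proximal start of Antp were open in replicate 1 only, and those of Dfd and Ubx in replicate 2 only.

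The starts of lab and Abd-B were closed in both early HIRA mutants. This made 2 of 8 genes open in both controls and in neither mutant, where 56.1% of all genes open in both early controls were closed in both mutants. The lab region at chr3R:6677630-6678968 had peaks of 473 and 791 bp in early wild type, none in early HIRA mutants, 778 and 826 bp in wild type at 2-3 h and 627 and 1204 bp in HIRA mutants at 2-3 h. In the dPCIF1 set its peaks were 1028 and 1082 bp in controls and 798 and 923 bp in mutants. The Abd-B region at chr3R:16960230-16960708, over the start nearest to its midpoint at 11.77 kb, had peaks of 257 and 304 bp in early wild type, none in early HIRA mutants, and 271 to 465 bp in the other 8 libraries. Both starts were thus called in HIRA mutants by 2-3 h. No Hox gene went the other way, where 2.78% of genes open in both early mutants were closed in both controls. None could, since all 8 had an open start in both early controls. No Hox gene changed state between both controls and both mutants at 2-3 h (closed 25.7%, opened 4.37% of genes open in the reference group). No Hox gene did in the dPCIF1 set (closed 3.09%, opened 22.2%). All 8 were open in both controls here too, so none could count as opened. For the Hox genes these comparisons therefore show only that none closed.

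The Ubx start, at chr3R:16734205-16734800, was open in 11 libraries. Its peaks were 454 and 376 bp in early wild type, absent and 234 bp in early HIRA mutants, 502 and 594 bp in wild type at 2-3 h and 464 and 438 bp in HIRA mutants at 2-3 h. They were 362 and 405 bp in the controls of the dPCIF1 set and 498 and 502 bp in its mutants. The starts of Dfd (chr3R:6791451-6791954) and abd-A (chr3R:16829969-16830417), whose upstream sequences also carry GAGAGAG, were also open in 11, with the early HIRA mutants at 200 bp in 1 replicate for Dfd and 251 bp in 1 replicate for abd-A. The narrowest peak in any list was 200 bp.

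At genes with several starts these differed. Antp is transcribed from a distal and a proximal promoter. The proximal start, 66.4 kb into the gene, was open in 11 libraries, and the distal start (chr3R:6999041-6999610) in 9, missing in 1 of 2 early controls of the HIRA set and in both early HIRA mutants. Another start at 40.9 kb was open in none. At Abd-B the start called above was open in 10 libraries and that at 38.0 kb in 8. The latter, in chr3R:16934116-16934949, had no peak in any of the 4 early libraries of the HIRA set, and peaks of 356 to 687 bp in the 4 late libraries, 574 and 587 bp in wild type of the dPCIF1 set and 759 and 834 bp in dPCIF1 mutants. The 3 most 5′ starts of Abd-B were open in no library, although regions 1.91 and 2.56 kb downstream of the first had peaks in 10 and 8 libraries.

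The distal start of Scr stood apart among the 19. Its region, chr3R:6849841-6850201, had peaks in 4 libraries. They were 281 and 230 bp wide in HIRA mutants at 2-3 h and 231 and 260 bp in dPCIF1 mutants, near the narrowest that the lists hold. None of the 6 wild-type libraries and neither early HIRA mutant had one. The pattern of both late HIRA mutants, both dPCIF1 mutants and no other library held for this 1 of the 135 Hox regions (0.741%) and for 0.286% of all regions. It was singled out after its values were seen.

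**Figure D4:**
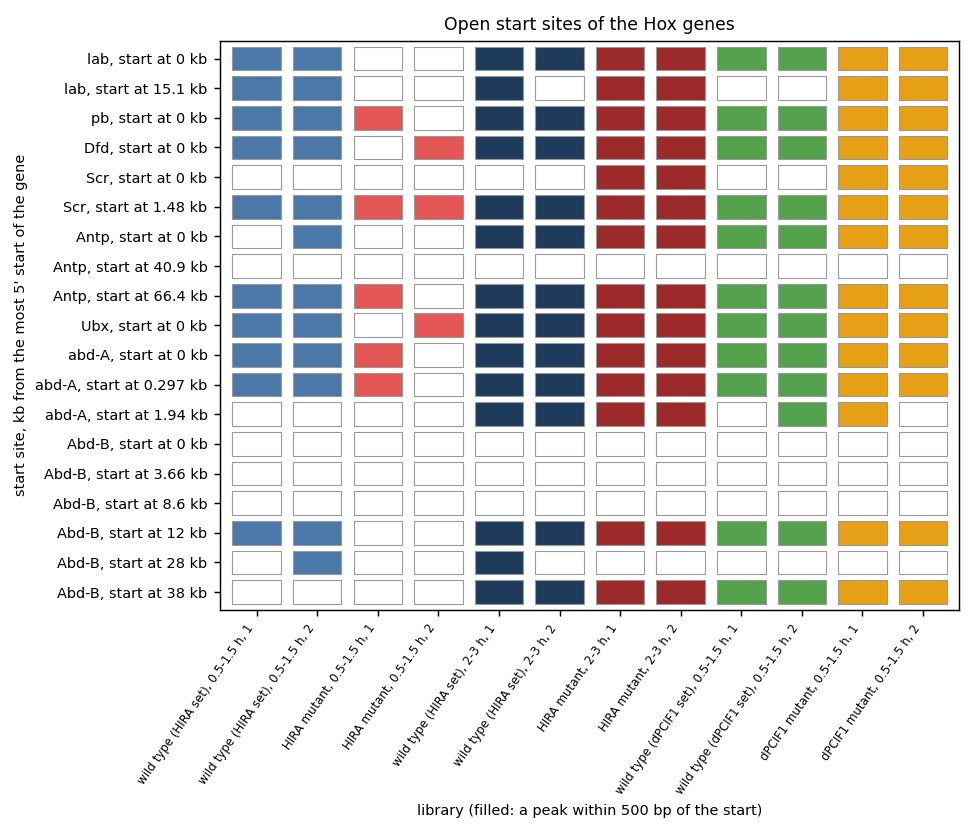
State of the 19 annotated Hox start sites (rows, with distance in kb from the most 5′ start of the gene) in the 12 libraries (columns); filled squares have a peak within 500 bp. The 2 columns of early HIRA mutants, the libraries with the shortest lists, hold 5 and 3 filled squares. The distal start of Scr is filled in 4 mutant libraries and in no wild-type library.

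Regions supported by both replicates, with at least 20% overlap of both peaks, were then compared between groups. Early wild type of the HIRA set had 42 such regions in the Hox windows. Of these, 12 had no matching peak in either HIRA mutant (28.6%, 95% Wilson interval 17.2 to 43.6, covering counting error only), 19 had one in 1 mutant and 11 in both. Over all chromosomes 48.3% of 3157 regions were lost. The 12 comprised 3 at TSS class regions, 7 in introns, 1 exonic and 1 intergenic, with 3 at Abd-B, 2 each at lab, pb and Antp and 1 each at Dfd, Scr and Ubx. None was at abd-A. By class, 3 of 17 TSS regions were lost (52.5% of all such regions) and 9 of 25 others (42.1%). Leaving out a library changes how many regions are tested and lost everywhere: 29 of 60 Hox regions were lost without control replicate 1 (48.3%, against 65.1% of all), 20 of 52 without control replicate 2 (38.5%, against 61.7%) and 26 of 42 without mutant replicate 2 (61.9%, against 68.7%). Conversely, of 12 regions found in both early HIRA mutants 0 were absent from both controls (Wilson interval 0 to 24.2, against 6.96% of all). Without mutant replicate 1 it was 6 of 34 (17.6%, against 27.5%), without mutant replicate 2 it was 1 of 18 (5.56%, against 21.3%) and without control replicate 2 it was 1 of 12 (8.33%, against 12.6%).

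Among the 135 merged regions, 7 had no peak in either early HIRA mutant and a peak in all 10 other libraries. They were the starts of lab and Abd-B described above and pb at 32.20 kb, Scr at 4.16 kb, Antp at 50.03 kb, Ubx at 18.59 kb and Abd-B at 1.91 kb. The Ubx region (chr3R:16715608-16716075), which holds GAGAGAG, had peaks of 294 and 299 bp in early wild type, none in early HIRA mutants and 295 to 442 bp in the other 8 libraries. The Scr intron region (chr3R:6845494-6846143) had 515 and 338 bp, none, and 379 to 611 bp. This pattern was met by 5.19% of Hox regions and 3.53% of all regions. By contrast the Ubx intron shown above had 588 and 606 bp in early wild type and 412 and 423 bp in early HIRA mutants, and the abd-A intron with both motifs had 310 and 403 bp against 357 and 235 bp.

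Peaks in both early HIRA mutants and only 1 early control of that set were found at 1 region (0.741%, against 0.331% of all regions). This was Abd-B at 30.26 kb (chr3R:16941621-16942340), named after its values were seen. It had peaks of 501 and 503 bp in the mutants, no peak and 370 bp in the controls, and 552 to 687 bp in the other 8 libraries. Another 6 regions had a peak in 1 early HIRA mutant and in neither control (4.44%, against 3.32% of all regions), 3 at Abd-B, 2 at Ubx and 1 at abd-A. No region of the 135 had both mutants and neither control, where 0.264% of all regions did.

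At 2-3 h wild type had 83 replicated Hox regions, of which 12 were lost in HIRA mutants (14.5%, interval 8.47 to 23.6, against 21.5% of all regions). Of the TSS class 1 of 26 was lost (22.7% of all such regions) and of the other classes 11 of 57 (19.9%). Antp had 5, Ubx 3, lab 2 and abd-A and Abd-B 1 each. In the lab window 1 of the 2 lay near the start of the neighbouring gene agt. Of the 58 regions of late HIRA mutants, 2 were gained (3.45%, interval 0.951 to 11.7, against 11.5%), the distal start of Scr and an Antp intron at 70.33 kb. The merged region at this Antp intron also had peaks of 271 and 382 bp in early wild type of the dPCIF1 set. Without mutant replicate 1, 26 of 83 were lost (31.3%, against 40.1%). Gained regions were 11 of 87 without mutant replicate 2 (12.6%, against 28.8%), 5 of 58 without control replicate 2 (8.62%, against 15.2%), 4 of 69 without mutant replicate 1 (5.80%, against 20.8%) and 4 of 58 without control replicate 1 (6.90%, against 19.6%).

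In the dPCIF1 set, gained regions outnumbered lost ones. Of 54 control regions 2 were lost (3.70%, interval 1.02 to 12.5, against 10.2% of all regions), both at Antp. Of 65 mutant regions 12 were gained (18.5%, interval 10.9 to 29.6, against 25.8%), with 5 at Antp, 3 at lab, 2 at Ubx and 1 each at pb and Scr. They included the proximal start of lab, at 15.4 kb, and the distal start of Scr, with peaks in both mutants and neither control of that set. At the lab start both early wild-type libraries of the HIRA set had peaks of 200 and 209 bp in the same merged region. The same held for the gained Antp introns at 25.70 kb (313 and 219 bp) and 15.20 kb (254 and 205 bp). Another of the 3 at lab, at 20.58 kb, lay near starts of the neighbouring genes CG1307 and twr. It had a peak of 321 bp in 1 of those wild-type libraries. Lost regions were 6 of 68 without control replicate 1 (8.82%, against 21.9%), 9 of 67 without control replicate 2 (13.4%, against 21.7%), 4 of 54 without mutant replicate 1 (7.41%, against 13.5%) and 6 of 54 without mutant replicate 2 (11.1%, against 17.1%). Gained regions were 23 of 83 without mutant replicate 1 (27.7%, against 41.4%) and 20 of 78 without mutant replicate 2 (25.6%, against 37.4%). Across all 12 libraries, 5 of the 135 regions had peaks in both dPCIF1 mutants and in no other library (3.70%, against 2.29% of all regions), 1 at lab, 2 at Antp, 1 at Ubx and 1 at Abd-B.

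The relation of the Hox windows to all regions was not the same at equal list length. Lists cut to the 1505 widest peaks still differ in the widths they keep. The narrowest kept was 200 and 269 bp in early HIRA mutants and 418 to 685 bp in the other libraries. An effect of list length alone therefore cannot be read from them. Where every library was reduced to its 1505 widest peaks, early HIRA mutants had lost 4 of 10 Hox regions (40.0%, against 29.3% of all) and dPCIF1 mutants 5 of 13 (38.5%, against 318 of 1059 over all regions), so that both shares were above those of all regions. HIRA mutants at 2-3 h had then lost 2 of 10 (against 26.6%). Gained regions were 2 of 10 (against 26.1%), 2 of 13 (15.4%, against 25.7%) and 2 of 8 (25.0%, against 26.6%) in the 3 comparisons, so dPCIF1 mutants then had more lost than gained regions. In these reduced lists the Hox windows held 20 and 17 peaks in early controls and 18 and 19 in early HIRA mutants, 14 and 13 in late controls and 16 and 22 in late HIRA mutants, 15 and 13 in controls of the dPCIF1 set and 12 and 8 in dPCIF1 mutants. The late HIRA mutants were then above their controls and the dPCIF1 mutants below theirs.

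**Figure D5:**
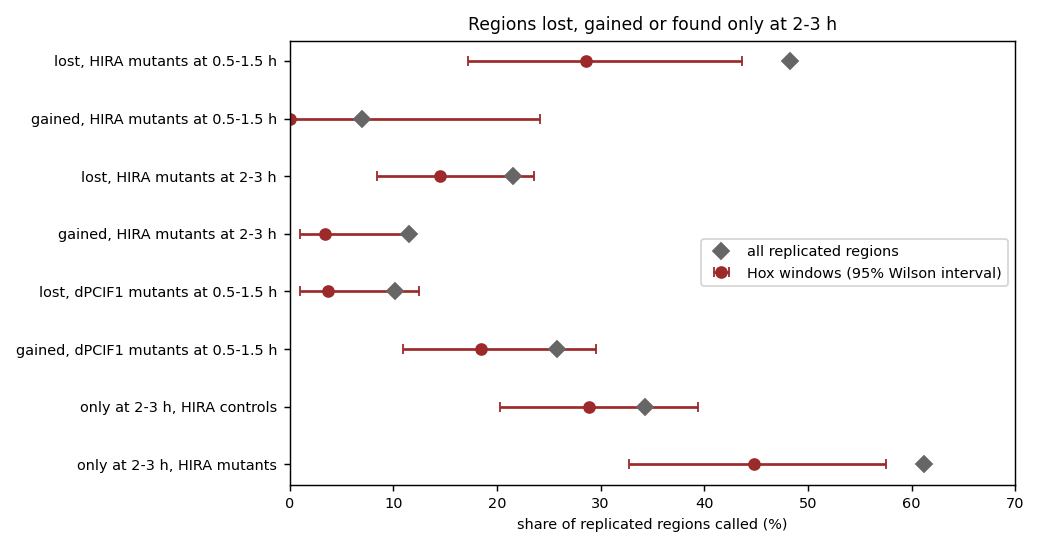
Share in percent of replicated regions that were lost, gained or found only at 2-3 h; red points are the Hox windows with 95% Wilson intervals for counting error, grey diamonds all regions of the same kind. The red points lie to the left of the diamonds in all 8 rows, as for regions lost in HIRA mutants at 0.5-1.5 h (28.6% against 48.3%); with the 1505 widest peaks of each library that row was 40.0% against 29.3% and the dPCIF1 lost row 5 of 13 against 318 of 1059.

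With stage, 24 of the 83 late wild-type Hox regions had no match in either early wild-type library (28.9%, interval 20.3 to 39.4, against 34.3% of all regions), 17 had one in 1 early library and 42 in both. Antp had 8 of the 24, Ubx 6, Abd-B 4, lab and pb 2 each and Scr and abd-A 1 each. In HIRA mutants 26 of 58 late regions were new (44.8%, interval 32.7 to 57.5, against 61.2%). Early regions were rarely absent later: 1 of 42 in wild type (2.38%, against 1.01%) and 0 of 12 in HIRA mutants (against 1.26%). The 1 region lay near the proximal start of lab, 15.62 kb into the gene, where the peak of 1 late wild-type library lay beside the early peaks without overlapping them.

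Of the 24 union regions found in both late and neither early wild-type library of the HIRA set, 6 had peaks in both dPCIF1 mutants (25.0%, against 42.8% of such regions over all chromosomes) and 6 in both early wild-type libraries of the dPCIF1 set (25.0%, against 24.8%). The abd-A start at 1.94 kb was one of those that varied. Its region, chr3R:16827124-16827750, had peaks of 215 and 453 bp in late wild type, 627 and 539 bp in late HIRA mutants, none in the early HIRA set, and a peak in 1 of 2 libraries of either dPCIF1 group. At 3 regions peaks were present in every library except the 4 early ones of the HIRA set, namely pb at 16.66 kb and Abd-B at 37.70 and 2.56 kb (2.22%, against 0.881% of all regions).

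Between 66.7% and 92.3% of the Hox peaks of a library were matched in the other replicate, except in early HIRA mutant replicate 2 with 35.3%, where 36.6% of all its peaks were matched. In the remaining libraries 53.1% to 79.7% of all peaks were.

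Other genes of the pathway were followed by whether any start was open. Of the 4 other homeobox genes of the Antennapedia complex, zen, a dorsal patterning gene, and ftz, a pair-rule gene, were open in all 12 libraries, early HIRA mutants included. The start of zen2 was open in 1 library, and that of bcd, a maternal anterior determinant, in none. Among Hox cofactors hth and tsh were open in all 12, and exd in 5, being open in both late controls and in neither late HIRA mutant. The share of all genes open in all 12 libraries was not computed. Of 15 Polycomb group genes 5 and 5 were open in early wild type, 2 and 1 in early HIRA mutants, 8 and 10 in late wild type, 6 and 4 in late HIRA mutants, 7 and 9 in wild type of the dPCIF1 set and 11 and 8 in dPCIF1 mutants. Pc, ph-p and E(z) were closed in both early HIRA mutants, 3 of the 5 open in both controls. Of 14 trithorax group and boundary factor genes 7 and 8 were open in early wild type and 1 and 2 in early HIRA mutants, with trx, ash2, Trl and pita closed in both, 4 of the 6 open in both controls. The same rule was met by 56.1% of all genes. At 2-3 h it was met by Su(z)12, Sfmbt and Jarid2 (3 of 8) and by ash2, osa and Cp190 (3 of 10), against 25.7% of all genes.

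The 3 non-member genes whose peak number per library was most like the summed Hox number were wts (r = 0.996), mtd (r = 0.982) and sty (r = 0.974) over the 12 libraries, among 271 genes with at least 5 peaks on average. The median r of those genes was 0.87, and all points share their library's list length.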

How the data were processed

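ATAC-seq libraries of pooled embryos were compared, 2 per group in 6 groups. The authors deposited 1 list of peak intervals per library, holding chromosome, start and end with no other score or signal. The submitters' processing notes name Trimmomatic 0.39, Bowtie2 2.2.5, SAMtools 1.18, MACS2 2.2.7.1 and deepTools 3.5.1 and the genome dm6, and the study's methods describe removal of duplicate and low-quality reads before peak calling. How the transposase offset was handled is not given in the sources used here. Depth is unknown and no peak height was compared. List length and peak width can move with depth.

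Gene spans and start sites were taken from Ensembl release 115 and sequence from the RefSeq Release 6 genome. Windows, region matching and tests were computed with Python 3.11.15, NumPy 2.4.6 and Matplotlib 3.10.9. Group means were compared with exact two-sided permutation tests over libraries, adjusted by Benjamini-Hochberg over 8 comparisons per measure. The code that makes the lost and gained calls was tested on simulated data with known answers, which does not test the calls themselves. Regions were described by counts beside those over all regions, with no test over regions. Intervals on shares cover counting error only.

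Members and gene lists were chosen with earlier results of these data known. All 8 genes were named. Single regions were named where they lay over a start, were present in all 12 libraries, or were lost, gained or found only at 2-3 h, and exceptions are stated. Alternatives were other extensions (0 and 10 kb), overlaps (1 bp and 50%), a start distance of 1 kb, peaks of 300 bp or wider, the 1505 widest peaks of each library, the other early wild-type group, left-out replicates and a replicate block.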

Additional observations from a re-analysis of the deposited data

How the results depend on the processing

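Differences are log2 ratios of group means, in the order HIRA at 0.5-1.5 h, HIRA at 2-3 h, dPCIF1, and stage. With the 1505 widest peaks of each library, the number of Hox peaks gave 0.00 and 0.49 for the HIRA mutants, -0.49 for dPCIF1 mutants, -0.45 for stage in wild type, -0.40 between the wild-type sets, -0.19 for stage over both genotypes and 0.23 for genotype over both stages. The Hox share then gave 0.00 for HIRA at 0.5-1.5 h and 0.04 for stage in HIRA mutants, covered length 0.29, -0.26 and -0.08 for HIRA at 2-3 h, dPCIF1 and the wild-type sets, and open starts 0.58 for HIRA at 0.5-1.5 h and over both stages. Lost regions were then 4 of 10 for HIRA at 0.5-1.5 h (40.0%, against 29.3% of all regions), 2 of 10 for HIRA at 2-3 h (against 26.6%) and 5 of 13 for dPCIF1 (38.5%, against 318 of 1059), so the Hox share lost turned from below to above that of all regions for HIRA at 0.5-1.5 h and for dPCIF1. Gained regions were 2 of 10 for HIRA at 0.5-1.5 h and 2 of 8 for dPCIF1, and regions found only at 2-3 h were 1 in wild type and 5 in HIRA mutants. With no extension the share for HIRA at 0.5-1.5 h was -0.02. Open starts for HIRA at 2-3 h were -0.05 within 1 kb and -0.06 with peaks of 300 bp or wider, where the share was 0.00. With 50% overlap 5 of 56 regions were gained in HIRA mutants at 2-3 h (8.93%, against 16.9% of all regions). In dPCIF1 mutants 5 of 53 were lost (9.43%, against 15.9%). With the other early wild-type group as control 24 of 54 regions were lost for HIRA (44.4%, against 62.7%) and 0 of 42 for dPCIF1 (against 6.37%). Regions with a motif anywhere numbered 25 for GAF (18.5%, against 12.5% of all regions) and 12 for Zelda (8.89%, against 8.46%). A 5-letter GAF motif within 100 bp of the midpoint was found in 53 (39.3%, against 30.2%). The causes were not tested.

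Leaving out 1 library gave 17 to 29, 15 to 26 and 4 to 9 lost regions and 0 to 6, 4 to 11 and 15 to 23 gained regions. Lost were 38.5% to 61.9% of Hox regions (56.2% to 68.7% of all), 16.5% to 31.3% (25.5% to 40.1%) and 7.41% to 13.4% (13.5% to 21.9%). Gained were 0% to 17.6% (10.3% to 27.5%), 5.80% to 12.6% (15.2% to 28.8%) and 23.1% to 27.7% (34.6% to 41.4%). The log2 ratio of the Hox share of peaks for HIRA at 2-3 h ran from -0.10 to 0.14 (-0.02 without control replicate 1), and that of open starts between the wild-type sets from -0.06 to 0.20.

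Replicate numbers did not pair the libraries, since differences between replicates correlated at 0.03, 0.03 and 0.00 over 22350 regions. With a replicate block the number of Hox peaks gave -1.17, -0.28 and 0.25 for the genotypes and the share 0.24, 0.02 and -0.20, with no direction changed.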
